A study of Oryza sativa with 8 samples.

Results

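The comparison described here is that of roots with and without the OsPSTOL1 transgene in P-fertilised soil. It rests on the 2 arrays of transgenic plants (T) and the 2 arrays of null segregants (NT) grown in that soil, 4 of the 8 arrays of the series, and on all 57194 probe sets that are not controls. The T plants are rice of the cultivar IR64 that carry OsPSTOL1 behind the constitutive 35S promoter, and the NT plants are the corresponding IR64 segregants without the transgene. Both were grown in pots in a greenhouse, and their roots were taken at mid-tillering, when the plant forms its tillers and crown roots. The other 4 arrays hold T and NT roots of P-deficient soil, taken at heading (2 arrays each). They entered the same fit and are set beside the values of P-fertilised soil where both soils are compared, and soil and stage cannot be told apart. How many transgenic lines were used, or how many plants made up a sample, is not given in the sources used here, so T against NT may also hold differences between lines, and p-values measure the spread between these arrays.

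OsPSTOL1 is a receptor-like cytoplasmic kinase gene of the Pup1 locus of traditional rice varieties. It is known as an enhancer of early root growth that helps plants take up phosphorus (P) and other nutrients, and modern cultivars such as IR64 lack it. Plants short of phosphate switch on a set of genes under PHR transcription factors, among them SPX genes for sensors of phosphate status, PHT1 genes for phosphate uptake carriers, and genes that replace phospholipids with galactolipids. This response is known to be low where phosphate is ample, and the comparison asks what the transgene goes with when phosphate is supplied.

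No probe set is named PSTOL1 in the annotation used, so the transgene itself was not read. Among 64 probe sets for reporter and marker genes, 1 read 3348.2 and 3393.7 in T, against 176.7 and 10.8 in NT of P-fertilised soil, and none of the other reporter probe sets read above 37.2 on any of these 4 arrays. Signals of replicate arrays correlated at 0.988 in T and 0.988 in NT across probe sets, which are not independent, and T with NT arrays at 0.986 to 0.99. The 3-prime over 5-prime signal of control transcripts, a sign of RNA integrity, was alike in both genotypes: 2.16 and 1.55 in T, against 1.61 and 1.94 in NT for GAPDH, and 6.09 and 5.79 in T, against 5.15 and 5.65 in NT for actin. The root markers Lsi1 and Lsi2 (silicon transporters), IRT1 (iron uptake), NAAT1 (iron chelator synthesis), OsCASP1 (Casparian strip), SHR1 and SCR1 (root patterning) summed to 7524 and 7278 in T and to 7777 and 7629 in NT. SCR1 was the single marker under 32 on all 4 arrays. The summed level of 11 probe sets of green tissue markers was 440.0 and 1360 in T, against 249.6 and 277.4 in NT, so T replicate 2 stood apart from the other 3 arrays. Floral markers summed to 435.1 and 564.7 in T, against 426.1 and 469.4 in NT, with MADS3 and MADS6 near 0 on all 4 arrays.

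A single probe set passed the test over all 34317 probe sets that remained after the lowest 40 percent were left out (limma, Benjamini-Hochberg adjusted p under 0.05, 0.00291 percent called). It stands for LOC4326189, a protein-coding gene without a name in the tables used. It read 200.1 and 203.0 in T, against 10.8 and 3.9 in NT. The T arrays were nearly equal and both NT arrays were close to the background of the array, so the gene rose in T by 2.57 ± 0.18 (log2 of signal + 32, SE, n = 2 arrays each, limma adjusted p = 0.0147). In P-deficient soil the same probe set read 161.5 and 128.2 in T, against 74.4 and 98.9 in NT, again without overlap, and differed by 0.58. The difference between the soils did not pass for this gene (limma interaction adjusted p = 0.187). The call was lost without NT replicate 1 (adjusted p = 0.248), without NT replicate 2 (0.193) or without T replicate 2 (0.0694). It was also lost with a replicate block (0.108), with the P-fertilised arrays alone (0.0662), with a pseudocount of 1 (0.114) and with no filter (0.0914), that is under 7 of 17 alternatives, over an adjusted p range of 0.00167 to 0.248 in limma. The difference stayed between 2.45 and 2.70 when single arrays were left out. The probe set with the next smallest p, picked out with its values known, has no listed gene. It read 78.8 and 93.1 in T, against 11.6 and 2.8 in NT, and in P-deficient soil 55.6 and 51.0 in T, against 10.7 and 16.7 in NT, so all 4 T arrays lay above all 4 NT arrays. Its difference of 1.60 missed the threshold (limma adjusted p = 0.122) and passed with array weights (0.0306). These weights were equal for both arrays of a group, so they weighed groups. They were 1.529 in T and 1.434 in NT of P-fertilised soil, against 0.856 and 0.5325 in P-deficient soil.

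Across the array the genotypes differed little. The median T minus NT difference was 0.01, 29 probe sets were higher in T by 1 or more on the log2 scale and 44 were lower by as much. At an unadjusted p under 0.05, 468 probe sets were higher in T (1.36 percent called) and 429 were lower (1.25 percent called). With the P-fertilised arrays alone, which leave out the spread of P-deficient soil, the counts were 940 and 1004. Lists with no member at this limit refer to the pooled fit. Counts of list members at this limit are to be read beside the shares of 1.36 percent higher and 1.25 percent lower. In 6962 probe sets both T arrays lay above both NT arrays (20.3 percent called) and in 5567 both lay below (16.2 percent called). The genes named in the comparisons that follow had a limma adjusted p of 1 in this fit and are described by their values.

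**Figure D1:**
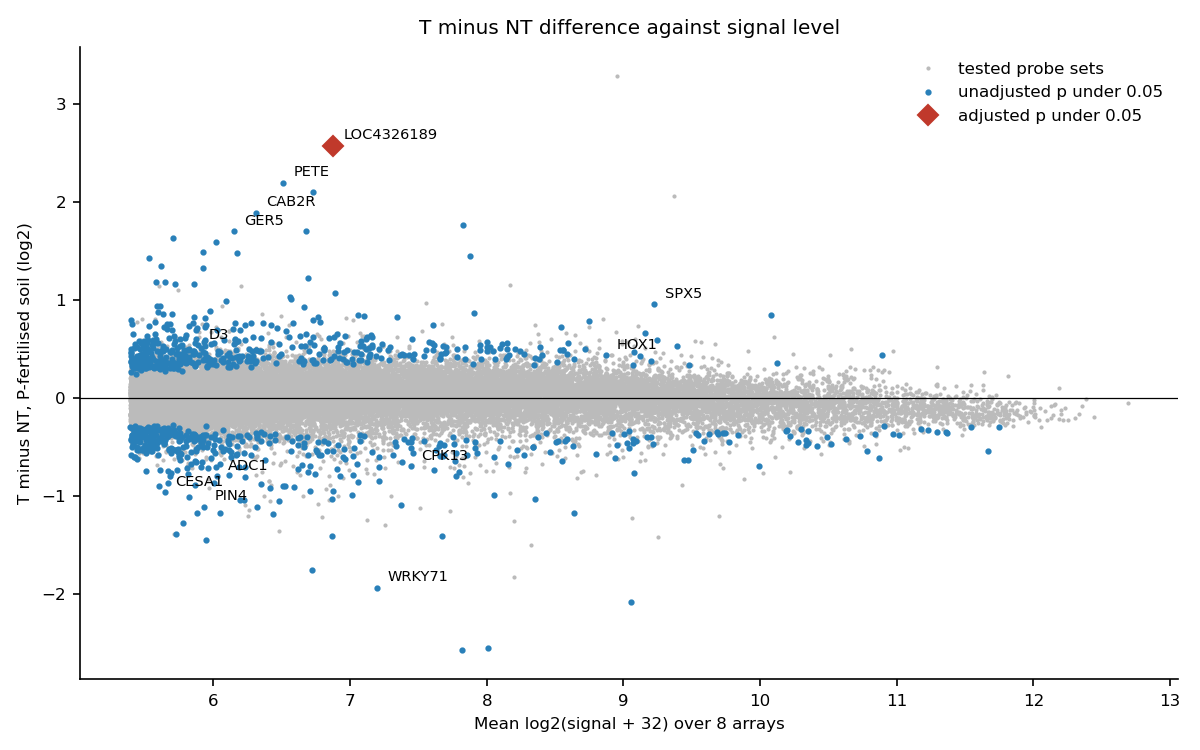
T minus NT difference in P-fertilised soil (vertical axis, log2 of signal + 32) against the mean log2 signal over 8 arrays (horizontal axis), 1 point per tested probe set. Grey points are all tested probe sets, blue points those with an unadjusted p under 0.05, and the red diamond is LOC4326189 at 2.57. Most points lie near 0 at every signal level.

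Among the SPX genes, SPX5 had the largest difference. SPX5, for a small SPX-domain protein induced by phosphate starvation, read 353.5 and 261.1 in T, against 184.0 and 105.8 in NT, with no overlap (0.96 ± 0.23). Its second probe set read 195.2 and 147.3 in T, against 145.5 and 73.2 in NT (0.56 ± 0.26). Both probe sets had T arrays above NT arrays, on the second by a narrow margin. In P-deficient soil SPX5 stood at 1526.5 and 1550.9 in T, against 1311.4 and 1444.9 in NT, so the T roots of fertilised soil remained far below that level. SPX2 read 137.7 and 102.9 in T, against 96.1 and 78.5 in NT (0.35 ± 0.20), SPX1 read 1180.0 and 818.4 in T, against 1064.4 and 633.4 in NT (0.25 ± 0.31), and SPX3 read 16.5 and 27.4 in T, against 25.4 and 18.7 in NT (-0.01 ± 0.26). SPX2 did not overlap between the genotypes, while SPX1 and SPX3 did. Of the 7 tested probe sets of 5 SPX genes, 1 was higher at an unadjusted p under 0.05, against 1.36 percent of all tested. Without overlap 3 were higher, against 20.3 percent of all tested probe sets. Both probe sets of SPX5 are among these 3, and by their identifiers they carry the same target number, so they are not independent. The list median of 0.25 was the second highest of the 53 lists. The median was 0.51 without T replicate 2, 0.14 without T replicate 1, 0.45 without NT replicate 1 and -0.01 without NT replicate 2, so its sign depended on that array.

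The uptake carriers differed less. OsPT8, a main PHT1 carrier of rice roots, read 1543.6 and 1117.6 in T, against 1523.3 and 845.9 in NT on the probe set with the larger difference (0.20 ± 0.26). OsPT2, a carrier for transport within the plant, read 2231.7 and 1983.6 in T, against 2253.1 and 1592.8 in NT (0.15 ± 0.30). OsPT4 differed by 0.06 ± 0.18 and OsPT6 by -0.17 ± 0.32, and both overlapped between the genotypes. Of 12 tested PHT1 probe sets, out of 18 on the array, 0 had an unadjusted p under 0.05 in limma in either direction, and the median was 0.02. PHO1-2, which loads phosphate into the xylem, read 1729.2 and 1809.8 in T, against 1799.1 and 1610.8 in NT on 1 of its 3 probe sets (0.05 ± 0.17), and the other two differed by -0.06 and 0.09. In the list of PHO1 genes and phosphate regulators 0 of 10 probe sets reached an unadjusted p under 0.05 in limma. The largest values there were LPR1, a ferroxidase-like gene of phosphate sensing in Arabidopsis, at 0.33, and PHR2, a central regulator of the starvation response, at -0.31 on a probe set that did not overlap. The other probe set of PHR2 read 436.9 and 389.6 in T, against 437.8 and 370.2 in NT, and differed by 0.03. MGD2, for a galactolipid synthase, read 48.7 and 72.9 in T, against 28.1 and 35.4 in NT (0.53 ± 0.22), the single one of 5 lipid probe sets at an unadjusted p under 0.05, and it was the other way round in P-deficient soil (-0.38).

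**Figure D2:**
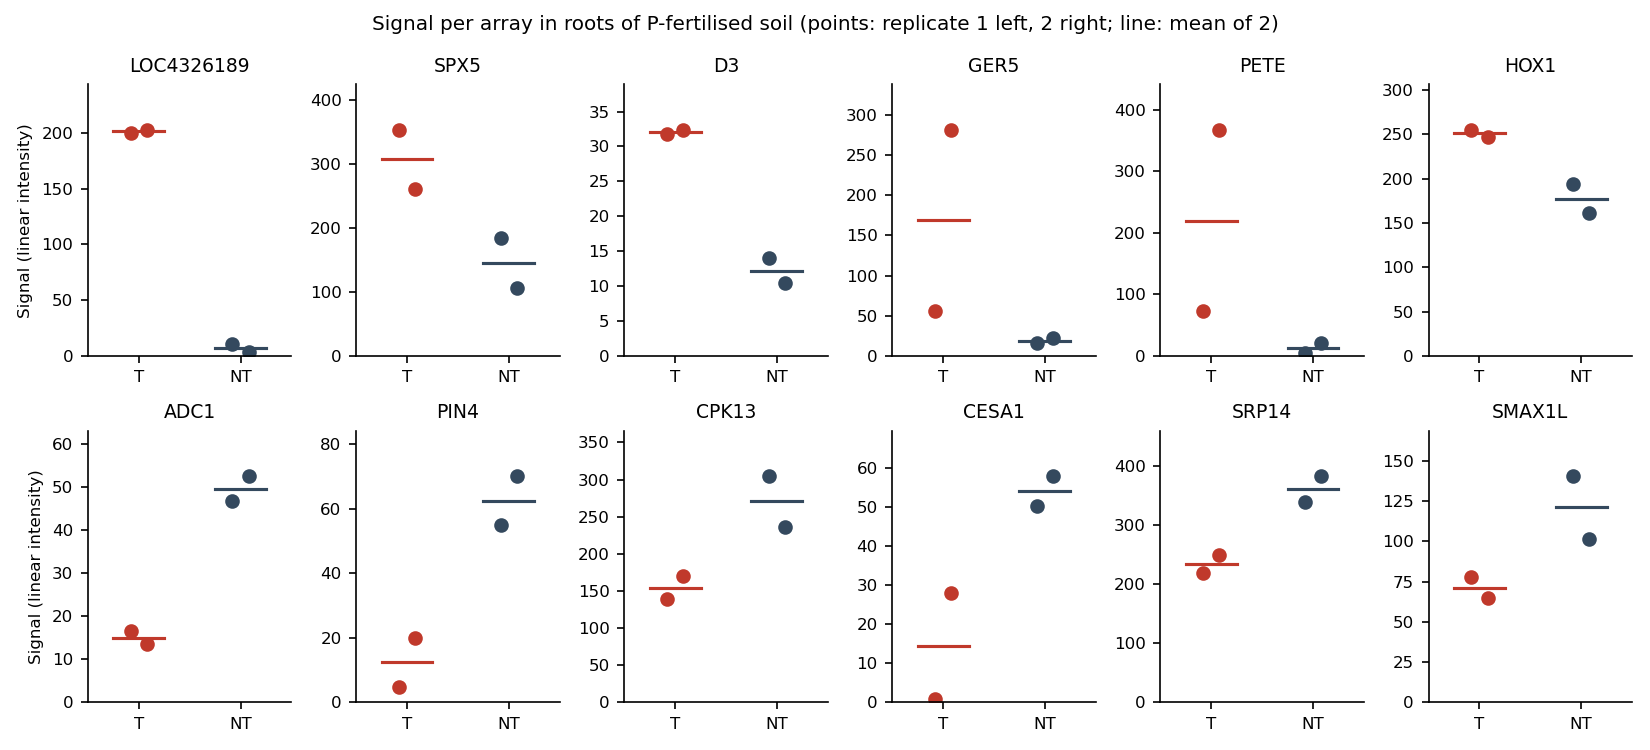
Signal of 12 probe sets on each array of P-fertilised soil (vertical axis, linear intensity, a separate scale from 0 in each panel). T is left and NT right, points are the arrays (replicate 1 left of replicate 2) and lines the means of 2. The T arrays do not overlap the NT arrays in any of these panels, a property that was part of the rule for naming genes. In GER5 and PETE T replicate 2 read 281.5 and 367.7, far above T replicate 1.

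Genes of strigolactone signalling, a hormone pathway by which roots answer low phosphate and restrain branching, split. D3, for the F-box protein of the receptor complex, read 31.8 and 32.4 in T, against 14 and 10.4 in NT (0.54 ± 0.13). These are low values, near the added 32 or under it, on the single probe set of D3. SMAX1L, a relative of the repressor D53, read 77.6 and 64.7 in T, against 140.4 and 101.6 in NT (-0.56 ± 0.19). Neither overlapped between the genotypes. D53-L, another gene of that family by its name, read 1056.8 and 1258.0 in T, against 888.5 and 803.3 in NT (0.43 ± 0.28), and on its second probe set 18.9 and 19.8 in T, against 10.8 and 10.9 in NT (0.26 ± 0.13), so SMAX1L and D53-L had opposite directions. SMAX1L was also lower in T in P-deficient soil (156.5 and 158.9 in T, 267.8 and 327.0 in NT), whereas D3 overlapped there. Of 8 tested probe sets 1 was higher and 1 lower at an unadjusted p under 0.05. Over all tested probe sets the shares were 1.36 percent and 1.25 percent. The median of the list was 0.10.

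Among the genes lower in T, ADC1 had the smallest p of those with a name. ADC1 codes for arginine decarboxylase, which opens a route to polyamines. Its probe set read 16.5 and 13.5 in T, against 46.8 and 52.6 in NT, with close replicates in both genotypes (-0.80 ± 0.15). The values of P-deficient soil were much the same, 18.6 and 14.5 in T, against 57.1 and 75.6 in NT, so this probe set was lower on all 4 T arrays. The other probe set of ADC1 read 1472.9 and 1312.6 in T, against 1358.6 and 1488.4 in NT, and overlapped between the genotypes, differing by -0.03 ± 0.26. ADC2 read 109.0 and 166.3 in T, against 143.6 and 146.6 in NT (-0.08 ± 0.29).

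PIN4, named as an auxin efflux carrier gene, has 1 probe set, which read 4.8 and 20.0 in T, against 54.8 and 70.0 in NT (-1.10 ± 0.26), and in P-deficient soil 6.3 and 14.8 in T, against 30.8 and 68.2 in NT (-0.91). CPK13, for a calcium-dependent protein kinase, read 139.3 and 169.7 in T, against 304.4 and 236.6 in NT (-0.69 ± 0.18), and in P-deficient soil 31.9 and 31.8 in T, against 250.5 and 204.3 in NT (-2.02). Its second probe set differed by -0.15 ± 0.14 in P-fertilised soil, at 2718.6 and 2328.7 in T, against 2799.3 and 2779.2 in NT. CIPK10, a kinase that acts with calcium sensors of the CBL family, read 24.3 and 73.4 in T, against 141.2 and 126.5 in NT (-1.10 ± 0.30), while its other 3 probe sets differed by -0.23 to 0.01. Of 50 tested probe sets of CPK and CIPK kinases these 2 were lower at an unadjusted p under 0.05 and 0 were higher. Over all tested probe sets 1.25 percent were lower and 1.36 percent higher. The median of the list was 0.01.

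CESA1, for a cellulose synthase subunit of the primary wall, read 0.9 and 27.9 in T, against 50.3 and 57.9 in NT on 1 probe set (-0.95 ± 0.26). On the other it read 1138.3 and 1363.7 in T, against 1029.5 and 1348.4 in NT (0.08 ± 0.54). That SE, like the others, also takes in the P-deficient soil, where the NT arrays read 228.9 and 1040.3. RPT1A, for an ATPase of the proteasome cap, read 89.6 and 124.9 in T, against 217.3 and 194.7 in NT (-0.78 ± 0.28), and in P-deficient soil 5.2 and 32.6 in T, against 174.3 and 121.5 in NT. WNK9, a kinase gene, read 167.9 and 262.8 in T, against 439.0 and 372.2 in NT (-0.85 ± 0.34), with -0.12 on its other probe set. ADL1, named for a leaf polarity mutant, read 4.7 and 7.4 in T, against 18 and 17.8 in NT, values near background (-0.39 ± 0.12), and its other probe set differed by 0.18. For ADC1, CPK13, CIPK10, CESA1, WNK9 and ADL1 the other probe sets of the same gene thus lay between -0.23 and 0.18, while PIN4, RPT1A and SMAX1L had a single probe set. WRKY71, a transcription factor gene of defence responses, read 0.9 and 158.9 in T, against 270.8 and 269.9 in NT on 1 probe set (-1.93 ± 0.65), and 1271.1 and 1308.0 in T, against 1547.7 and 1657.2 in NT on the other (-0.31 ± 0.17). The first passed without T replicate 2 (limma adjusted p = 0.025), the T array on which it was far higher, and that fit has 1 T array and takes the spread from the other groups.

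Further genes had both T arrays below both NT arrays. OsCXXS1, for a thioredoxin-like protein, read 801.9 and 633.7 in T, against 901.1 and 1066.6 in NT (-0.44 ± 0.16). The gene listed as P1/P2-like read 1503.2 and 1750.6 in T, against 1996.6 and 2202.7 in NT (-0.36 ± 0.14). Both genes had the opposite order without overlap in P-deficient soil. There OsCXXS1 read 1790.0 and 1920.8 in T, against 1606.8 and 1653.1 in NT (0.18). P1/P2-like read 1835.7 and 1817.2 in T, against 1622.1 and 1797.8 in NT (0.10). SRP14, for a subunit of the signal recognition particle that guides proteins to the endoplasmic reticulum, read 218.8 and 249.4 in T, against 339.7 and 382.7 in NT (-0.56 ± 0.15). SRP14 had the opposite order in P-deficient soil, with 151.1 and 157.3 in T, against 89.0 and 83.5 in NT (0.66), and neither soil's arrays overlapped. For SRP14 the difference between soils did not pass (limma interaction adjusted p = 0.542).

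Several single genes read higher in T with both T arrays above both NT arrays. GPA3, a factor of vacuolar protein sorting known from rice seeds, read 275.4 and 284.4 in T, against 179.5 and 192.9 in NT (0.52 ± 0.15), and RMR1, a vacuolar sorting receptor, read 263.2 and 229.8 in T, against 171.9 and 156.3 in NT (0.50 ± 0.15). Their other probe sets differed by 0.08 for GPA3 and by 0.14 to 0.22 for RMR1. OsPP2C12, a protein phosphatase, read 105.8 and 137.4 in T, against 57.3 and 79.0 in NT (0.62 ± 0.20). SAP9, for a stress-associated zinc-finger protein, read 75.8 and 84.8 in T, against 52.1 and 47.9 in NT (0.45 ± 0.15) and was higher by much the same amount in P-deficient soil, with 117.7 and 108.2 in T, against 79.1 and 70.5 in NT (0.44), while its other probe set differed by -0.08 in P-fertilised soil. ALDP, named for a plastid aldolase, read 17.1 and 19.1 in T, against 3.6 and 3.5 in NT, all near background (0.49 ± 0.11), and in P-deficient soil it was lower in T (-0.27).

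Photosynthesis genes formed the list with the highest median, and most of the size of the difference came from T replicate 2. PETE, for the electron carrier plastocyanin, read 72.4 and 367.7 in T, against 4.9 and 21.7 in NT (2.20 ± 0.63). CAB2R, for a chlorophyll-binding protein of the light-harvesting antenna, read 66.3 and 397.3 in T, against 27.2 and 19.7 in NT (1.89 ± 0.60), and 49.9 and 111.8 in T, against 27.6 and 38.3 in NT on its second probe set (0.75 ± 0.25). RBCS, the small subunit of Rubisco, read 86.2 and 250.9 in T, against 60 and 57.7 in NT (1.01 ± 0.36). Its 3 other probe sets differed by 0.12 to 0.33, and the one at 111.6 and 108.8 in T, against 84.6 and 114.7 in NT, overlapped. RCABP69, another chlorophyll-binding protein gene, read 26.7 and 61.1 in T, against 15.9 and 8.2 in NT (0.75 ± 0.24). RCAA1, for Rubisco activase, read 13.9 and 46.2 in T, against 2.7 and 5.4 in NT (0.73 ± 0.26), and its 3 other probe sets differed by 0.16 to 0.37. PSAH, a photosystem I subunit, read 22.3 and 54.2 in T, against 10.8 and 9.8 in NT (0.69).

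T replicate 2 was the highest of the 4 arrays in each of these 7 probe sets, and T replicate 1 lay between it and the NT arrays. Of the 15 tested photosynthesis probe sets, out of 21 on the array, 7 were higher at an unadjusted p under 0.05 and 0 were lower, against 1.36 percent and 1.25 percent over all tested probe sets. All 15 differences were above 0, with a median of 0.50. T replicate 1 alone lay above both NT arrays in 11 of them. Without T replicate 2 the median was 0.34 and 1 probe set remained higher at an unadjusted p under 0.05, and without T replicate 1 the median was 0.82. In P-deficient soil the median was -0.08. Of the chlorophyll synthesis genes, 0 of 11 probe sets reached an unadjusted p under 0.05 in limma, with a median of 0.03. PETE, CAB2R, RBCS and PSAH are among the green tissue markers, whose summed level was 440.0 and 1360 in T, against 249.6 and 277.4 in NT, with PORA and RBCS1 near 0 on all 4 arrays. Fewer cells of a type and less RNA per cell cannot be told apart in such bulk root RNA, and the part of green tissue in these values was not tested.

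Other genes had the same order of arrays. GER5, of the germin-like family of apoplastic proteins, read 55.6 and 281.5 in T, against 16.0 and 21.8 in NT (1.71 ± 0.48), and it passed without T replicate 1 (limma adjusted p = 0.0475), where T is 1 array that is assumed to vary like the other groups. PIP2-7, an aquaporin gene, read 11.7 and 76.4 in T, against 6.2 and 10.4 in NT (0.77 ± 0.34). LOC4327106, without a name, had 2 tested probe sets higher at an unadjusted p under 0.05. One read 35.2 and 201.3 in T, against 16.6 and 19.2 in NT (1.33 ± 0.47). The other read 128.0 and 157.5 in T, against 49.1 and 36.2 in NT (1.23 ± 0.33), with close T arrays, and it was also higher in T in P-deficient soil (90.8 and 127.0 in T, 60.3 and 11 in NT). LOC4345663 had 3 probe sets higher by 0.82 to 1.19, each highest on T replicate 2.

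Among 2471 genes with 2 or more tested probe sets, 4 had all of them at an unadjusted p under 0.05 in 1 direction: CAB2R, LOC4327106 and LOC4345663 higher, and LOC4347372 lower. LOC4347372 read 98.7 and 165.4 in T, against 252.8 and 326.0 in NT on one (-0.99 ± 0.25) and 94.4 and 139.0 in T, against 199.7 and 246.6 in NT on the other (-0.79 ± 0.21). It was also lower in T in P-deficient soil, at 212.2 and 200 in T, against 450.3 and 306.5 in NT (-0.76). By their identifiers, both probe sets of LOC4347372, both of CAB2R and a pair of those of LOC4345663 carry the same target number, so they may share probes and are not independent.

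**Figure D3:**
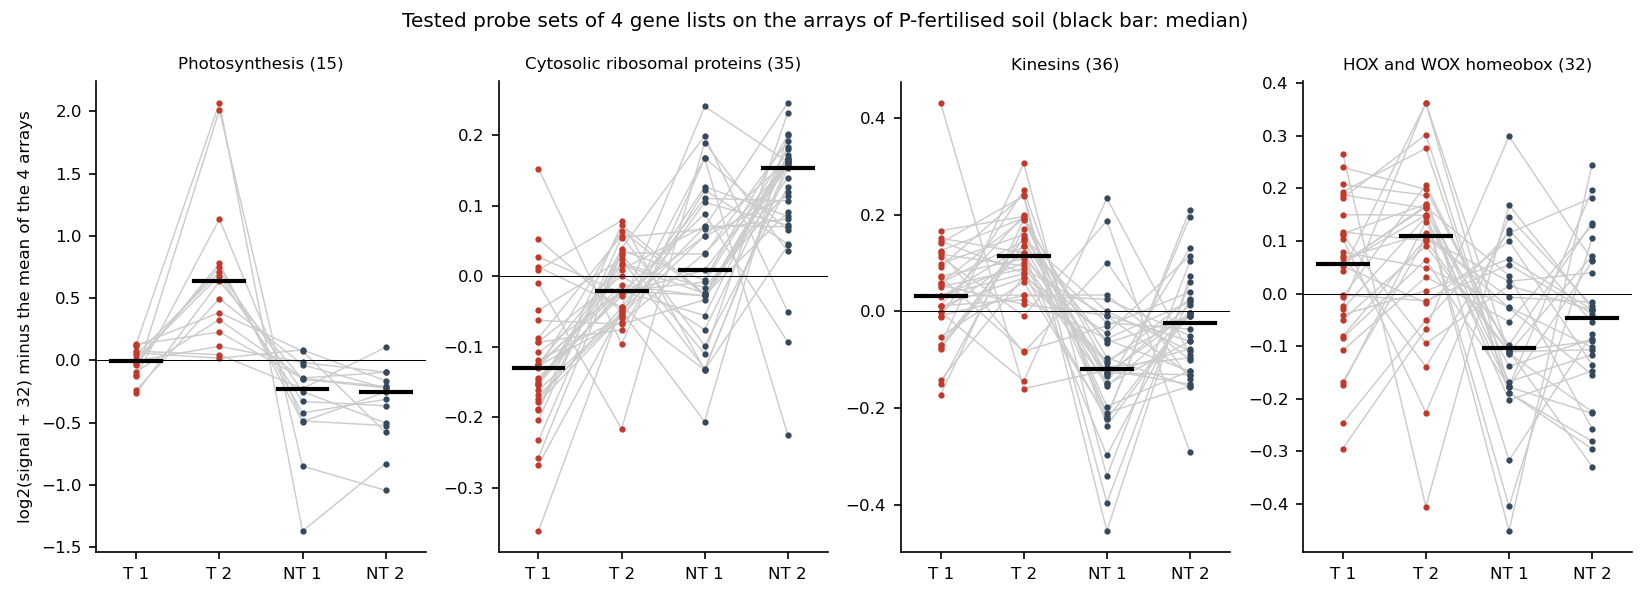
Tested probe sets of 4 gene lists on the 4 arrays of P-fertilised soil (T replicates left, NT replicates right). The vertical axis is log2(signal + 32) minus the mean of the 4 arrays, on a separate scale in each panel, grey lines join 1 probe set and black bars are medians. Photosynthesis genes are high on T replicate 2 (median 0.63), ribosomal protein genes are lowest on T replicate 1 (-0.13), and kinesin and homeobox genes are spread around small shifts.

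Root development and hormone genes differed by small amounts. HOX1, a homeobox gene, read 255.1 and 246.9 in T, against 193.4 and 161.5 in NT (0.44 ± 0.15), and HOX4 read 264.9 and 260.7 in T, against 174.4 and 211.7 in NT (0.39 ± 0.17). Both were higher in T in P-deficient soil too (0.66 for HOX1 and 0.57 for HOX4), so in each soil both T arrays lay above both NT arrays. WOX11, which promotes the emergence and growth of crown roots, read 39.7 and 57.4 in T, against 29.5 and 27.4 in NT (0.41 ± 0.17), and overlapped in P-deficient soil (-0.14). HOX2 read 510.4 and 542.3 in T, against 384.0 and 358.3 in NT (0.47 ± 0.21). Of the 32 tested HOX and WOX probe sets, out of 41, 3 were higher and 0 lower at an unadjusted p under 0.05. The shares over all tested probe sets were 1.36 percent and 1.25 percent. In 15 of the 32 both T arrays lay above both NT arrays and in 2 below. Over all tested probe sets this held for 20.3 percent and 16.2 percent. The median of the list was 0.12. Among the 6 root initiation genes WOX11 was the single one at an unadjusted p under 0.05, and QHB, of the quiescent centre, differed by 0.22.

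In the cytokinin list, 3 of 29 probe sets were higher and 0 lower at an unadjusted p under 0.05. Over all tested probe sets the shares were 1.36 percent and 1.25 percent. RR2, a response regulator induced by cytokinin, read 173.3 and 150.8 in T, against 115.0 and 111.7 in NT (0.41 ± 0.15). CKX3 and CKX4, for oxidases that break cytokinin down, read 73.3 and 77.8 in T, against 50.5 and 49.7 in NT (CKX3, 0.39 ± 0.14) and 107.1 and 117.0 in T, against 79.9 and 76.5 in NT (CKX4, 0.39 ± 0.15). All 3 had T arrays above NT arrays with little spread, and in P-deficient soil they differed by 0.16, -0.04 and -0.02 in the same order. Both T arrays lay above both NT arrays in 12 of the 29 and below in 2, against 20.3 percent and 16.2 percent over all tested probe sets, and the median was 0.15. Of the auxin response genes, arf1 read 560.9 and 511.6 in T, against 398.8 and 438.7 in NT (0.33 ± 0.14), the single one of 48 Aux/IAA and ARF probe sets at an unadjusted p under 0.05. In the lists of gibberellin (17 probe sets) and of jasmonate and ethylene genes (47), 0 reached that limit in limma. JAZ10, a repressor of jasmonate responses, read 432.6 and 822.8 in T, against 1392.8 and 1451.4 in NT on 1 probe set (-1.21 ± 0.61), and 3304.1 and 3421.1 in T, against 3945.5 and 4337.3 in NT on the other (-0.30 ± 0.13).

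Kinesins are motor proteins that move on microtubules. In 17 of 36 tested probe sets both T arrays lay above both NT arrays and in 0 below, against 20.3 percent above and 16.2 percent below over all tested probe sets, and 25.4 and 28.0 percent above in the fourth and the fifth sixth of signal, counted from the lowest. In this list 33 of the 36 differences were above 0, with a median of 0.13. KIN14Q alone reached an unadjusted p under 0.05, at 40.7 and 42.2 in T, against 24.0 and 26.2 in NT (0.36 ± 0.14). The 76 probe sets of cyclins, CDKs, replication and histones had 12 above, 7 below and a median of 0.01. Summed with the kinesins as markers of dividing cells, over all 120 probe sets on the array, they read 27014 and 29470 in T, against 26657 and 29012 in NT.

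Cytosolic ribosomal protein genes had the other direction. Both T arrays lay below both NT arrays in 16 of 35 probe sets and above in 0, with a median of -0.14, although 0 reached an unadjusted p under 0.05 in limma. RPL39C read 1330.3 and 1552.0 in T, against 1689.3 and 1912.4 in NT, and RPS3A read 2765.1 and 3027.5 in T, against 3374.5 and 3366.0 in NT. With quantile normalization the median was -0.04 and 8 of 35 differences were above 0, against 4 as deposited. Among all tested probe sets in the sixth with the highest signals, which holds 28 of these 35, the share with both T arrays below both NT arrays was 25.6 percent and above was 16.2 percent, while in the sixth next to it the shares were 12.5 percent below and 28.0 percent above. A general shift of bright probe sets thus moved with the ribosomal list, and its part in that list was not tested. The proteasome and ubiquitin list, with 13 of 16 probe sets in the brightest sixth, had 9 below and 2 above (median -0.08, and -0.07 with quantile normalization), and the calmodulin list, with 18 of 29 there, had 10 below and 3 above (median -0.10, and -0.05).

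Stress and defence lists held few members at the limit. Of 23 probe sets of small heat shock proteins, chaperones of stressed cells, 1 was higher at an unadjusted p under 0.05 and 7 did not overlap, all higher, against 20.3 percent of all tested probe sets. HSP18.1 read 166.0 and 135.8 in T, against 98.2 and 103.3 in NT (0.46 ± 0.16) and was higher in P-deficient soil as well (289.9 and 274.6 in T, 201.7 and 215.3 in NT). Its second probe set differed by 0.37 ± 0.16 in P-fertilised soil and by -0.28 in P-deficient soil. In the 39 probe sets of other heat shock proteins and factors 1 was above and 7 below without overlap. The shares over all tested probe sets were 20.3 percent above and 16.2 percent below. In that list 0 reached an unadjusted p under 0.05 in limma. Diterpenoid phytoalexin genes, whose products are antimicrobial, had 0 of 15 at that limit in limma and a median of 0.16. That median was 0.25 without T replicate 2 and -0.03 without T replicate 1, so its sign rested on T replicate 1, and it was -0.49 in P-deficient soil.

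In nutrient transport and sugar metabolism single genes reached the limit. HAK13, a potassium transporter gene, read 35.7 and 24.7 in T, against 11.7 and 15.2 in NT (0.45 ± 0.18), the single one of 28 potassium probe sets at an unadjusted p under 0.05. NIN3, for a neutral invertase that splits sucrose, read 364.1 and 368.7 in T, against 275.5 and 263.4 in NT (0.40 ± 0.14), the single one of 30 in sucrose cleavage and starch. In the lists of iron chelators and uptake (24), metal transporters (28), silicon transporters (3), PIP aquaporins (13), TIP and NIP aquaporins (15), nitrogen uptake (20) and sugar transporters (19), 0 reached it in limma. IRT1 read 159.2 and 158.8 in T, against 109.9 and 140.2 in NT, and NRAMP5, which carries manganese into the root, read 670.0 and 662.5 in T, against 455.9 and 510.3 in NT. Among wall genes, CESA9 and CESA4, of the secondary wall, differed by 0.47 and 0.42, and CESA4 overlapped between the genotypes on that probe set. CESA7 differed by 0.20, also with overlap. Of the expansin and CSL probe sets, 0 of 27 and 0 of 22 reached the limit in limma.

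Over the 53 lists, medians ran from -0.20 (haemoglobin and fermentation, 9 probe sets) to 0.50 (photosynthesis), and 34 lists had 0 members at an unadjusted p under 0.05 in limma. A median lay at least 0.1 from that of all tested probe sets in 14 of the 53 lists. In the lowest list PDC2, a fermentation gene, read 652.3 and 655.9 in T, against 1097.0 and 731.6 in NT, and PDC1 had the opposite order, with 489.4 and 372.6 in T, against 291.6 and 205.3 in NT.

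**Figure D4:**
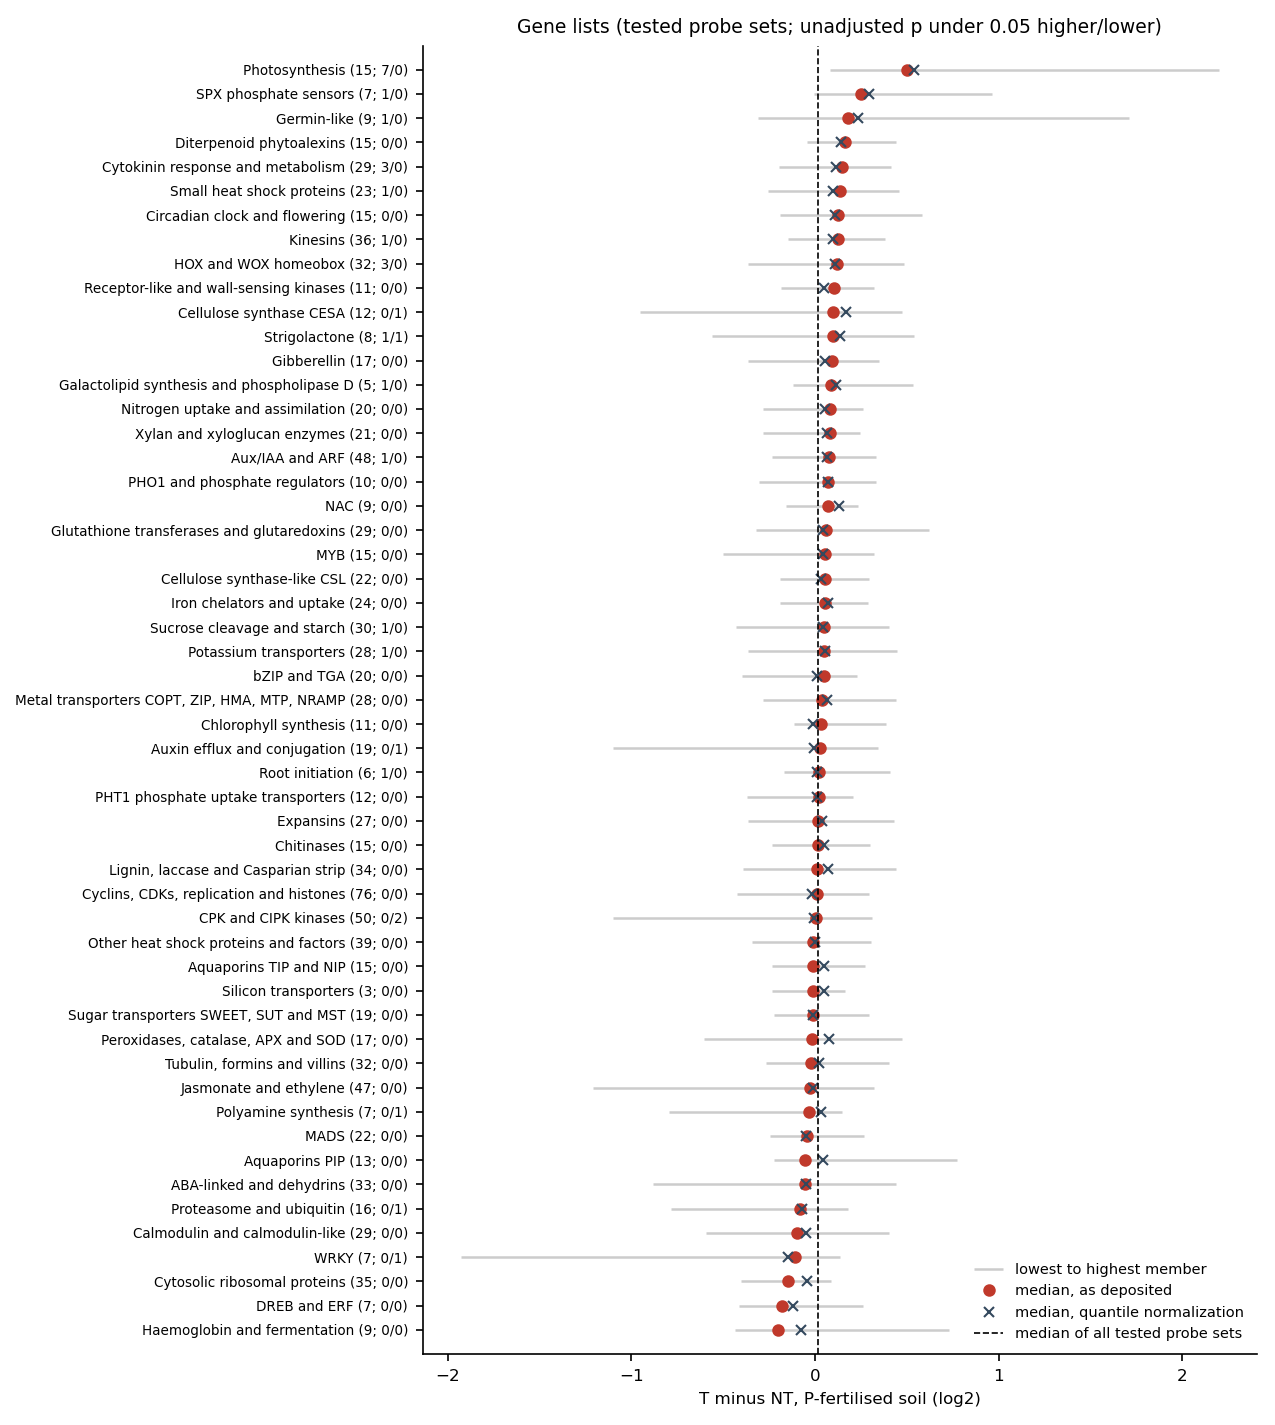
Median T minus NT difference of each of 53 gene lists in P-fertilised soil (horizontal axis, log2 of signal + 32). Red points use the deposited scaling, crosses quantile normalization, grey lines run from the lowest to the highest member and the dashed line is the median of all tested probe sets. Photosynthesis stands at 0.50 and all other lists lie between -0.20 and 0.25.

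The same 2 genotypes were set against each other in P-deficient soil on 4 other arrays, so the 2 comparisons share no array. They do share 1 estimate of the spread, which also entered the choice of the 468 and 429 probe sets. That choice favours probe sets with close replicates in both soils. Shares by arrays that do not overlap are given first, and they are not free of it. Of the 429 probe sets lower in T in P-fertilised soil, 217 (50.6 percent) were also lower without overlap in P-deficient soil, against 22.9 percent of all tested probe sets, and 63 (14.7 percent) were higher, against 17.6 percent. Of the 468 higher in T, 123 (26.3 percent) were higher without overlap in P-deficient soil and 124 (26.5 percent) were lower. The shares over all tested probe sets were 17.6 percent and 22.9 percent. The GAPDH 3-prime over 5-prime signal in P-deficient soil was 198 and 3.05 in T, against 1.15 and 1.21 in NT. For actin it was 272 and 20.3 in T, against 4.85 and 8.61 in NT, so both T arrays were higher for both controls. The part of RNA quality in the shared lower values was not tested. At an unadjusted p under 0.05 in both soils, 122 probe sets were lower in T (28.4 percent of the 429, against 8.71 percent called in P-deficient soil) and 42 were higher (8.97 percent of the 468, against 4.55 percent called). A further 44 were higher in P-fertilised and lower in P-deficient soil (9.4 percent of the 468, against 8.71 percent called). The other way there were 16 (3.73 percent of the 429, against 4.55 percent called). Both shares lay near those over all tested probe sets. These counts by p rest on the shared spread in both soils.

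Single probe sets of named genes had an unadjusted p under 0.05 and the same direction in both soils. Those of ADC1, PIN4, CPK13, SMAX1L, WRKY71, RPT1A, WNK9 and ADL1 were lower, and those of SAP9, HSP18.1, HOX1, HOX4 and AO-2 were higher. Other probe sets of these genes did not always follow. In P-fertilised and P-deficient soil the second of HSP18.1 differed by 0.37 and -0.28. That of ADC1 differed by -0.03 and -0.19, with overlap in both. Those of WRKY71 (-0.31 and -0.41) and CPK13 (-0.15 and -0.13) were lower in both. With opposite directions at that limit in both soils there were 3: SRP14, ALDP and S1FA. Of these, S1FA read 812.8 and 845.3 in T, against 1061.8 and 1088.7 in NT in P-fertilised soil. In P-deficient soil S1FA read 688.6 and 719.6 in T, against 593.4 and 460.8 in NT. In P-deficient soil GER5 differed by 0.08, PETE by 0.22 and the first CAB2R probe set by -0.61. As a test of the difference between soils, 0 probe sets passed in limma (0.0 percent called, lowest adjusted p 0.123), with 2032 at an unadjusted interaction p under 0.05.

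**Figure D5:**
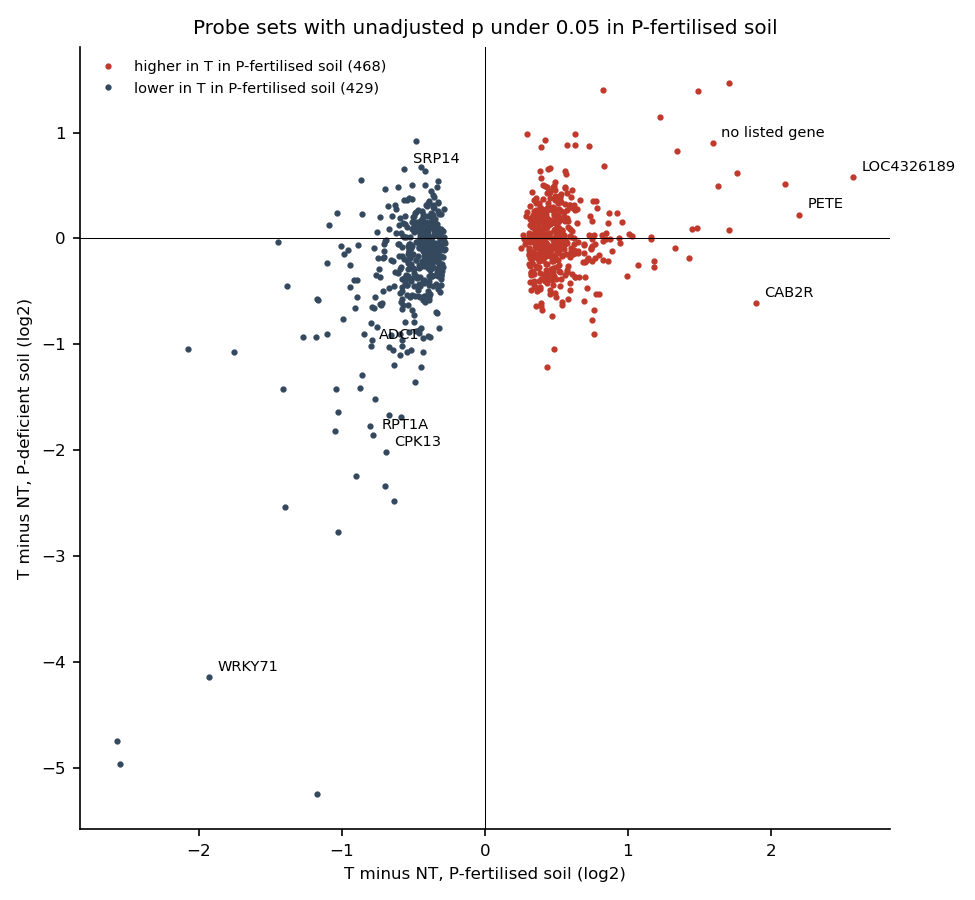
T minus NT difference in P-deficient soil (vertical axis) against that in P-fertilised soil (horizontal axis), both as log2 of signal + 32, for the 468 probe sets higher (red) and the 429 lower (dark) in T at an unadjusted p under 0.05 in P-fertilised soil. The gap around 0 on the horizontal axis comes from that choice. The dark points reach down to the lower left, with WRKY71 at -1.93 and -4.14, while the red points lie on both sides of 0 on the vertical axis.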

How the data were processed

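Root RNA of 8 samples was measured on the Affymetrix rice array, 2 arrays in each of 4 groups that the labels give. The authors deposited linear intensity values, made with GCOS per the submitters' processing notes (version not given in the sources used here). On every array their mean without the top and bottom 2 percent was 100.01 to 100.02, so arrays were scaled to 1 level, and differences are relative to it. Values were converted to log2(intensity + 32) from the deposited table, and the lowest 40 percent of 57194 probe sets by mean were left out, without regard to group. For the 34317 others, limma 3.58.1 (R 4.3.3) fitted the means of the 4 groups over all 8 arrays, with a trend in eBayes and Benjamini-Hochberg adjustment over all of them. The fit was tested on simulated data. The log2 scale with 32 added understates changes of low signals, and the number of arrays limits the precision.

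The annotation paired 22436 probe sets with 1 gene, 95 with several and 34663 with none, and names came from the RefSeq table of the assembly ASM3414082v1. Named are the probe set past the threshold, those with a gene name and the smallest p or the largest differences whose arrays did not overlap, genes whose tested probe sets all had an unadjusted p under 0.05 in 1 direction, and members of the gene lists, with list members outside these chosen after their values were seen. The comparison and the lists were chosen with earlier results of these data known, so counts over lists are descriptions. The deviations of same-numbered arrays correlated at 0.21 in P-fertilised soil and, in opposite directions, at -0.26 in P-deficient soil. Nothing in the labels pairs these arrays, so the fit has no replicate block. Alternatives were other pseudocounts and filters, quantile normalization, a replicate block, no trend, array weights (equal within each group), the P-fertilised arrays alone and each array left out. Sequences and coordinates were not used here.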

Additional observations from a re-analysis of the deposited data

Results flagged for a closer look

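A probe set outside the comparison, 1 of the 64 for reporter and marker genes that were left out of the fit, gave signal in T roots above the level in NT roots. Its lowest T array in P-fertilised soil read 3348.2 and the other read 3393.7, against 176.7 and 10.8 on the NT arrays. In P-deficient soil it read 345.3 and 1887.6 in T, against 185.4 and 198.0 in NT, so the T arrays were higher there too, with a wider spread.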

How the results depend on the processing

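LOC4326189 kept its direction under all 17 alternatives and its call under 10, and the number of probe sets past the threshold, 1 as reported, changed with the setting. It was 0 with a pseudocount of 1, with no filter (57194 probe sets tested), with a replicate block and with the P-fertilised arrays alone, 2 with array weights, and 0 to 7 when single arrays were left out. The 7 without T replicate 1 were all higher in T, GER5 and LOC4327106 among them, and the 3 without T replicate 2 were all lower, WRKY71 among them, and in each such fit the lone array of a group is assumed to vary like the other groups. For the difference between the soils the count was 0 as reported and 0 to 140 when single arrays were left out, 140 of them without T replicate 2 of P-deficient soil. The unadjusted counts of 468 higher and 429 lower were 905 and 852 with no filter, 265 and 240 with the lowest 60 percent left out, 1040 and 984 with array weights, 940 and 1004 with the P-fertilised arrays alone, and 368 to 686 and 268 to 672 when single arrays were left out. Of the values followed by the rule for named genes, 47 had an unadjusted p under 0.05, 96 with array weights, 93 with the P-fertilised arrays alone and 25 to 68 when single arrays were left out. The 14 list medians at least 0.1 from that of all probe sets were 7 with a pseudocount of 100 and 14 to 18 when single arrays were left out. The replicate block gave 455 higher and 386 lower at an unadjusted p under 0.05. Nothing in the labels pairs same-numbered samples. Their deviations correlated at 0.21 in P-fertilised and at -0.26 in P-deficient soil, with 2 pairs in each soil. In P-fertilised soil T with NT arrays correlated at 0.988 and 0.990 with the same number, and at 0.987 and 0.986 with different numbers. Whether same-numbered arrays share an effect was not tested. Of 582 values of 35 probe sets under the alternatives, 572 kept their direction and side of the threshold, 3 came to pass, 7 no longer passed (all LOC4326189) and 0 reversed. The fit of P-fertilised arrays alone gives no difference between soils, and other causes were not tested.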

Other observations

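The genes and probe sets below were chosen after their values were seen. LOC4348070 and LOC4348069 have consecutive gene identifiers and opposite differences in P-fertilised soil. LOC4348070 read 74.4 and 86.4 in T, against 26.0 and 22.9 in NT (0.99 ± 0.14, limma adjusted p = 0.722), and LOC4348069 read 10.5 and 15.6 in T, against 48.0 and 37.7 in NT (-0.73 ± 0.14, limma adjusted p = 1). In P-deficient soil LOC4348070 was lower in T, at 20.4 and 19.0 in T, against 30 and 38.1 in NT. LOC9268712 read 45.1 and 60.6 in T, against 1.4 and 1.2 in NT in P-fertilised soil, and in P-deficient soil 11.5 and 52.3 in T, against 1.4 and 2.9 in NT, so it was near background on all 4 NT arrays.

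In 3 probe sets the signal was under 32 on T replicate 1 of P-fertilised soil and on both T arrays of P-deficient soil, and over 200 on all 4 NT arrays. T replicate 2 of P-fertilised soil lay between, at 57.0, 49.3 and 58.8 percent of the NT mean. One is the first probe set of WRKY71, and the other two have no listed gene. Of these, the first read 2.0 and 384.7 in T, against 671.6 and 679.1 in NT in P-fertilised soil, and in P-deficient soil 1.6 and 2.5 in T, against 786.2 and 988.3 in NT. The other of them read 5.9 and 314.9 in T, against 658.6 and 619.9 in NT in P-fertilised soil, and in P-deficient soil 8.4 and 13.6 in T, against 1388.7 and 1226.5 in NT.

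The largest positive difference of all, 3.29 ± 2.07 for a probe set with no listed gene, came from 1 array: it read 3754.9 and 3685.9 in T, against 2.8 and 4211.8 in NT.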
